A study of Mus musculus with 7 samples.

Results

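The genes described here are 51 mouse genes that bring secretory proteins into the endoplasmic reticulum (ER) and carry them between the ER and the Golgi. They were listed by name, with earlier results of these data known but no threshold on their values, and matched to the Ensembl identifiers of a count table with 55414 identifiers. By role they are 20 genes of translocation, 7 of N-glycosylation, 9 of the COPII coat, 6 of the COPI coat, and 9 that encode retrieval and cargo receptors. All 51 passed the filter on low counts, as did 14329 genes in all.

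The data are RNA-seq read counts of Paneth cells (PCs), secretory cells of the small intestine that sit at the bottom of the crypts and store their products in granules. The mice were C57BL/6J, and no transgene or deletion is given for any of them. The control group (n = 3) was injected with phosphate-buffered saline (PBS) and the other group (n = 4) with tumour necrosis factor (TNF), an inflammatory cytokine. PCs were collected with a cell sorter 15 h later, and each library came from its own animal. Neither labels nor series text state the dose, route, age, sex, sorting markers, stretch of intestine or dates. The comparison asks what an injection of TNF does to PC transcripts.

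A secretory protein begins with a signal peptide, which the signal recognition particle (SRP) binds while the ribosome is still at work. SRP docks at its receptor on the ER, the chain passes through the Sec61 channel, signal peptidase removes the signal peptide, and oligosaccharyltransferase attaches N-linked glycans. COPII vesicles then carry cargo from the ER towards the Golgi, and COPI vesicles return escaped ER residents, while receptors in the membrane pick the cargo. PCs depend heavily on this route, since they secrete lysozyme, alpha-defensins and other antimicrobial proteins.

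Libraries held between 15511455 and 19193721 counts. Levels are CPM, that is counts per 1000000 with TMM scaling (trimmed mean of M-values), and log2 fold changes are TNF over PBS with their standard error (SE), written after ± for fold changes. A gene was called higher or lower at an adjusted p under 0.05 in edgeR's quasi-likelihood test, fitted on all 14329 genes. The 10 PC markers examined, Lyz1 among them, were abundant in every library, with summed levels of 168400 to 273500 CPM in PBS and 172900 to 314300 CPM in TNF libraries, carried mostly by Lyz1 and Defa24. Of these markers 4 were called higher (Nupr1, Pla2g2a, Defa22 and Mmp7) and 2 lower (Habp2 and Clps), beside 29.5% and 30.1% of all genes tested. Markers of other crypt cells were present too. Called lower were 6 of 10 goblet cell markers (1 was called higher), 10 of 10 tuft cell markers, 9 of 10 stem cell markers, 5 of 7 tested enterocyte markers (Slc5a1 was called higher) and 5 of 10 enteroendocrine markers, while 30.1% of all genes tested were called lower. Summed goblet cell markers ran from 11700 to 21190 CPM in PBS and from 9598 to 11130 CPM in TNF libraries, and tuft cell markers from 1696 to 2810 CPM and from 351 to 884 CPM. Stem cell markers summed to 3921 to 5301 CPM and 2084 to 2848 CPM, and enterocyte and enteroendocrine markers each to at most 245 CPM in any library. Plasma cell markers, which mark another professional secretory cell, summed to at most 4.39 CPM in any library, with Mzb1 and Tnfrsf17 at 0 throughout, and other leukocyte markers to at most 31.9 CPM, with Cd3e at 0. Of the latter, S100a9, a neutrophil protein that other cells can also make, was at 0 in all 3 PBS libraries and at 3.21 to 7.85 CPM in the 4 TNF libraries (called higher, adjusted p = 1.14e-06). Ptprc, the pan-leukocyte marker, was called lower, at 11.4 to 26.2 CPM in PBS and 6.25 to 12.7 CPM in TNF libraries. The part of these other cells in the results below was not tested, and in bulk RNA fewer cells of a type and less RNA per cell cannot be told apart.

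In PBS libraries most of the 51 genes were expressed at high levels for their length. Divided by the length of the canonical transcript, 38 of the 51 lay above the 90th percentile of all genes tested and 24 above the 95th. Ssr3 (a subunit of the translocon-associated protein complex, TRAP) stood highest at 199 CPM per kb, followed by Sec61a1 (the pore of the Sec61 channel) at 189, Sec11c (a catalytic subunit of signal peptidase) at 182 and Kdelr2 (a retrieval receptor) at 180. The SD over the 3 PBS libraries was 40.8, 35.1, 25.3 and 39.4 CPM per kb, and the order of these neighbours was not tested. Sec61g, a small channel subunit, was the only one below the 50th percentile, at 3.64 ± 0.576 CPM (SD, n = 3). This percentile depends on the length of its canonical transcript, taken as 2086 bases. Of its 50-base windows, 15.8% also occur in other annotated genes.

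After TNF the 51 genes split in both directions. Of them, 14 (27.5%) were called higher, where 29.5% of all genes tested were, and 11 (21.6%) were called lower, where 30.1% were. Together 25 (49.0%) were called, against 59.6% of all genes tested, so with TMM scaling the share called among the 51 was below the background. At a mean of at least 20 CPM, where detection is easier, 25 of 50 were called beside 70.2% of 6538 genes tested. Their median log2 fold change was 0.03, beside 0.00 over all genes tested, with a range from -1.01 to 2.00. A change of at least 2-fold was called for 3 genes, Mcfd2, Kdelr3 and Sec62, while 31.6% of all genes tested changed that much. TNF libraries lay wholly above PBS libraries for 8 of the 51 genes and wholly below for 10, so that 18 had groups without overlap. Of all genes tested 29.9% lay above, 30.9% below and 60.7% either way. When libraries were scaled by their total counts alone, the calls were 12 higher and 21 lower, beside 3142 and 4614 of the 14329 genes tested. The share called among the 51 was then above the background. The median of all genes tested moved to -0.16 and that of the 51 to -0.13. Without PBS replicate 2 the number called higher was 9, and without PBS replicate 1 the number called lower was 7.

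**Figure D1:**
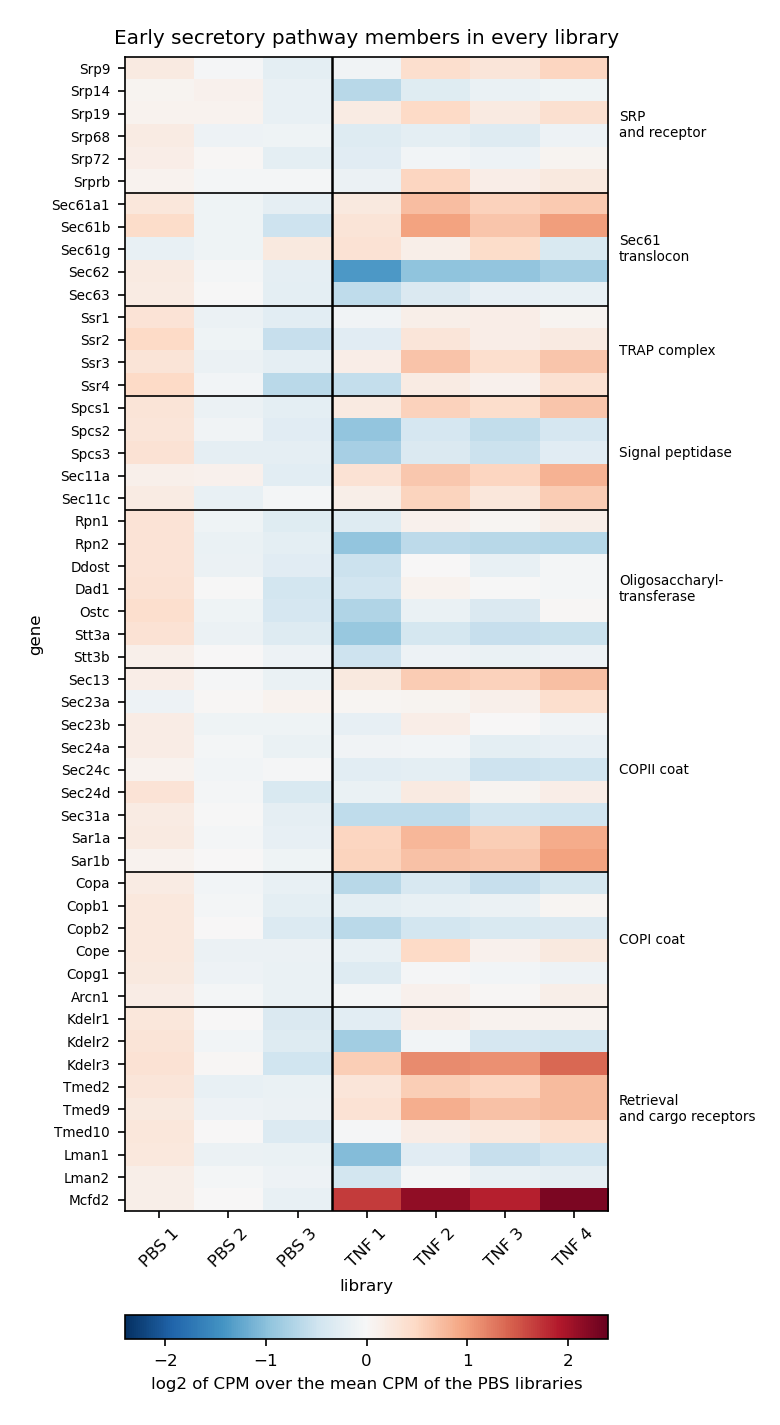
Heat map of the 51 genes (rows, grouped by complex) in the 3 PBS and 4 TNF libraries (columns), coloured by the log2 of CPM over the mean CPM of the PBS libraries. Mcfd2 and Kdelr3 are above the PBS mean and Sec62 below it in all 4 TNF libraries, while most other genes change by less than 2-fold, and within each complex both colours can occur.

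**Figure D2:**
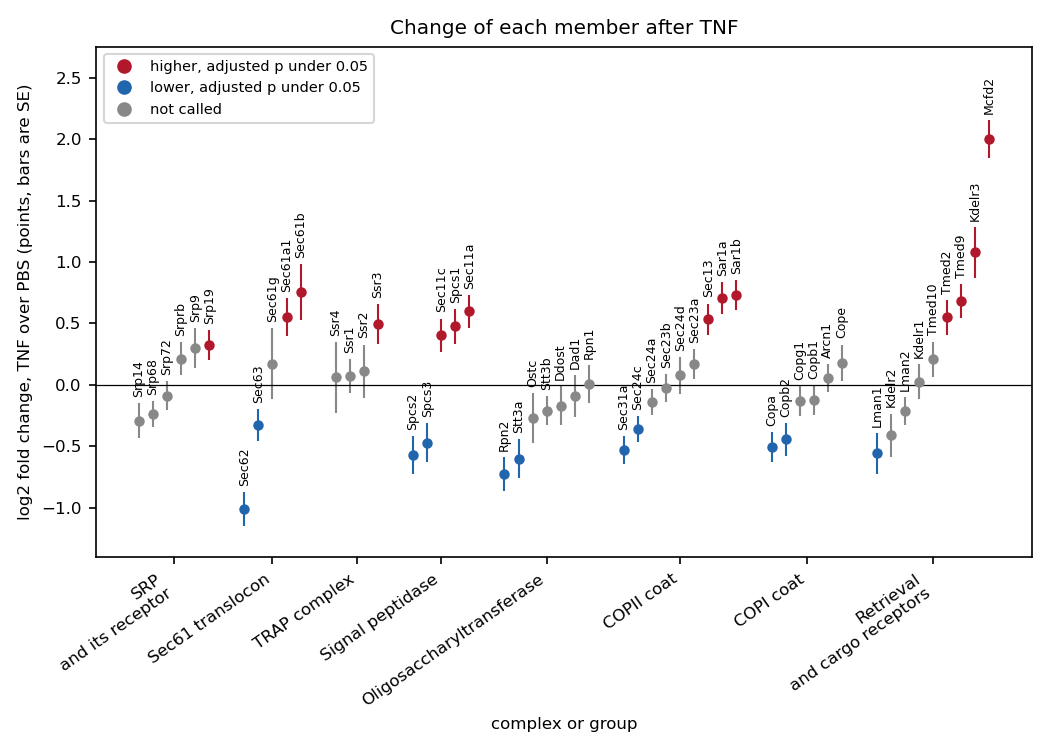
Log2 fold change of each of the 51 genes, TNF over PBS, with bars of 1 SE, ordered within each complex and coloured by the call at an adjusted p under 0.05. Called genes in both directions stand in the Sec61 translocon, signal peptidase, the COPII coat and the receptors, while the called genes of oligosaccharyltransferase and the COPI coat were lower.

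Among the 20 translocation genes, 7 (35%) were called higher and 4 (20%) lower, beside 29.5% and 30.1% of all genes tested, with a median log2 fold change of 0.14. Of SRP and its receptor, 1 of 6 genes was called. Srp19, an SRP protein, measured 29.1, 29.1 and 24.4 CPM in PBS replicates 1 to 3 and 31.4, 38.3, 32.1 and 35.8 CPM in TNF replicates 1 to 4. The TNF libraries were all above the PBS libraries, by a narrow gap. Its log2 fold change was 0.32 ± 0.12 (SE, adjusted p = 0.0357), and the call was lost without PBS replicate 2 or 3 or TNF replicate 2 or 4, at log2 fold changes from 0.24 to 0.37. It was also lost with no filter on low counts (adjusted p = 0.0535) and with scaling by total counts, where the log2 fold change was 0.16. The other 5 (Srp9, Srp14, Srp68, Srp72 and Srprb, the receptor's beta subunit) had values from -0.29 to 0.30 that did not pass the test. Each was called under an alternative: Srp14, Srp68 and Srp72 lower with scaling by total counts (-0.46 to -0.25), Srp14 and Srp68 lower without PBS replicate 3 and Srp68 also without TNF replicate 4 (-0.38 to -0.29), and Srp9 (0.41) and Srprb (0.31) higher without TNF replicate 1. Of 11 tested translocation genes outside the 51, 3 (27.3%) were called higher and 4 (36.4%) lower, near the same background, and Srpra, the receptor's alpha subunit, rose by a log2 fold change of 0.70 ± 0.13 (adjusted p = 3.01e-04).

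Of the 3 subunits of the Sec61 channel, Sec61a1 and Sec61b were called higher, while its partners Sec62 and Sec63 were called lower. Of all genes tested 29.5% were called higher and 30.1% lower. Sec61a1 measured 726, 559 and 514 CPM after PBS and 703, 1002, 882 and 929 CPM after TNF. Only TNF replicate 1 fell within the PBS range, below PBS replicate 1. The rise was 0.55 ± 0.16 (log2, adjusted p = 0.00716), and Sec61b, a smaller channel subunit, rose by 0.76 ± 0.23 (adjusted p = 0.0156), a call lost without PBS replicate 2 (log2 fold change 0.71). Sec61g did not pass the test, at 0.17 ± 0.29 (adjusted p = 0.631). Reads of Sec61a1 and Sec61b cannot be assigned with certainty for 14.6% and 15.4% of their 50-base windows, which also occur in other annotated genes.

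Sec62 and Sec63 assist the channel with proteins that arrive after their synthesis, and Sec62 is also known as a receptor for ER turnover by autophagy. Sec62 measured 224, 187 and 167 CPM after PBS and 74.4, 98.4, 100 and 109 CPM after TNF. Every TNF library was below every PBS library by a wide gap. The log2 fold change was -1.01 ± 0.14 (adjusted p = 2.44e-05), the largest fall among the 51 genes, with values between -1.17 and -0.88 under the 14 alternative settings. Sec63 was also called lower, at -0.33 ± 0.13 (adjusted p = 0.0439), with overlapping libraries, and its call was lost without PBS replicate 1 or 2 or TNF replicate 1 or 2 (-0.33 to -0.21). The ratio of Sec61a1 to Sec62 in CPM, not corrected for length, was 3.24, 2.99 and 3.09 in PBS and 9.46, 10.2, 8.79 and 8.52 in TNF libraries. This ratio and those given below were picked after their values were seen and are a description only.

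TRAP, which sits beside the channel and helps some signal peptides engage it, had 1 of 4 subunits called, beside 59.6% of all genes tested. Ssr3 rose by 0.49 ± 0.16 on the log2 scale (adjusted p = 0.0186), from a mean of 587 ± 121 to 827 ± 139 CPM (SD, n = 3 and 4). Its groups overlapped, with TNF replicate 1 at 653 CPM and PBS replicate 1 at 725 CPM. The call was lost without PBS replicate 2 or 3 or TNF replicate 2 or 4 (0.39 to 0.43). Ssr1, Ssr2 and Ssr4 had log2 fold changes from 0.06 to 0.11 and did not pass the test. Their spread between libraries was wide, with a coefficient of variation of up to 38.1% within PBS (Ssr4), the highest of the 51 genes.

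All 5 signal peptidase genes were called, beside 59.6% of all genes tested, but not in 1 direction, and 3 of the calls were lost under alternatives given below. The catalytic subunits Sec11a and Sec11c and the accessory subunit Spcs1 were higher, and the accessory subunits Spcs2 and Spcs3 lower. Sec11a measured 49.5, 48.6 and 37.9 CPM after PBS and 57.9, 70.9, 65.2 and 80.3 CPM after TNF, with every TNF library above every PBS library. The log2 fold change of Sec11a was 0.60 ± 0.13 (adjusted p = 0.00154), and 15.5% of its 50-base windows occur in another annotated gene. Sec11c measured 180, 138 and 151 CPM after PBS and 173, 226, 190 and 240 CPM after TNF, so that TNF replicate 1 fell within the PBS range. Its log2 fold change was 0.40 ± 0.13 (adjusted p = 0.0188), lost without PBS replicate 2 or TNF replicate 2 or 4 (0.32 to 0.36) and with scaling by total counts (0.24, adjusted p = 0.0868).

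Spcs2 moved the other way. It measured 164, 126 and 110 CPM after PBS and 69.0, 101, 88.3 and 100 CPM after TNF, with no overlap. Its log2 fold change was -0.57 ± 0.16 (adjusted p = 0.00634). Spcs3 gave -0.47 ± 0.16 (adjusted p = 0.0216), lost without PBS replicate 1 (-0.25), and Spcs1 gave 0.48 ± 0.14 (adjusted p = 0.0109), lost without PBS replicate 2 or 3 (0.42 and 0.37). Over all 20 translocation genes, 2 were called higher without PBS replicate 2, and 4 without PBS replicate 3, TNF replicate 2 or TNF replicate 4. Without PBS replicate 1, 2 were called lower.

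Of the 7 oligosaccharyltransferase genes, 2 (28.6%) were called lower, Rpn2 and Stt3a, beside 30.1% of all genes tested. The count called higher by edgeR was 0, as it was at an unadjusted p under 0.05, in the DESeq2 Wald test and without any one library. Rpn2, a non-catalytic subunit that was among the 5 most abundant of the 51 genes per kb in PBS libraries, measured 619, 443 and 423 CPM after PBS and 256, 322, 310 and 309 CPM after TNF. All TNF libraries lay below all PBS libraries, by a wide gap. The log2 fold change was -0.73 ± 0.14 (adjusted p = 5.23e-04). Its partner Rpn1 did not move with it, at 365 ± 81.7 CPM after PBS and 367 ± 48.9 CPM after TNF (log2 fold change 0.01 ± 0.15, adjusted p = 0.974).

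The catalytic subunit exists in a form that works on chains entering the channel, Stt3a, and a form that glycosylates sites missed at first, Stt3b. Stt3a measured 424, 303 and 269 CPM after PBS and 176, 246, 226 and 228 CPM after TNF, with no overlap. Stt3b measured 301, 277 and 254 CPM after PBS and 197, 256, 248 and 256 CPM after TNF, and these ranges met. The log2 fold change was -0.60 ± 0.16 for Stt3a (adjusted p = 0.00498) and -0.21 ± 0.12 for Stt3b, which did not pass the test (adjusted p = 0.14) except with scaling by total counts (-0.38, adjusted p = 0.00462). Stt3b took 41.5%, 47.8% and 48.5% of the counts of the pair in PBS libraries and 52.9%, 51.0%, 52.4% and 52.9% in TNF libraries. The shares did not overlap, but an exact permutation test, for which 0.0286 is the smallest possible p, gave 0.0286 before and 0.0857 after adjustment over the 6 paralog families examined. Ddost, Dad1 and Ostc had log2 fold changes from -0.27 to -0.09 and did not pass the test. With scaling by total counts, Ddost (-0.32) and Ostc (-0.42) were called lower, for 5 of the 7 genes called lower. At this scaling 4614 of all 14329 genes tested were called lower. Of Ddost, 48.6% of the 50-base windows also lie in the neighbouring gene Pink1.

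Of the 9 COPII genes, 3 (33.3%) were called higher and 2 (22.2%) lower, beside 29.5% and 30.1% of all genes tested, and these 5 calls kept their direction and stayed past the threshold without any one library. The Sar1 GTPases start the assembly of the coat. Sar1a measured 153, 127 and 116 CPM after PBS and 189, 228, 200 and 244 CPM after TNF, and Sar1b 38.2, 36.4 and 33.9 CPM after PBS and 52.6, 59.1, 57.4 and 71.0 CPM after TNF. Neither gene had overlapping groups. They rose together, by log2 fold changes of 0.71 ± 0.13 (adjusted p = 2.81e-04) and 0.73 ± 0.12 (adjusted p = 1.33e-04). The share of Sar1b in the pair's counts was 21.6% ± 1.44 in PBS and 21.8% ± 0.889 in TNF libraries (SD, n = 3 and 4, exact permutation p = 0.8, also 0.8 after adjustment).

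The outer cage of COPII is built of Sec13 and Sec31, which moved apart. Sec31a measured 435, 380 and 329 CPM after PBS and 251, 250, 281 and 274 CPM after TNF, all TNF libraries being lower. Its log2 fold change was -0.53 ± 0.12 (adjusted p = 0.00124), whereas Sec13 rose by 0.54 ± 0.13 (adjusted p = 0.00226), from 67.4 ± 7.70 to 97.7 ± 13.4 CPM (SD), also without overlap. The ratio of Sec13 to Sec31a in CPM was 0.177 ± 0.00493 in PBS and 0.37 ± 0.0455 in TNF libraries. Sec13 is also a component of the nuclear pore.

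In the inner coat, Sec24 proteins select the cargo. Of the 3 Sec24 genes among the 51, Sec24c was called lower, while Sec24b, from the wider list described below, was called higher (0.59 ± 0.13, adjusted p = 0.00173). Sec24c measured 185, 167 and 171 CPM after PBS and 146, 148, 124 and 126 CPM after TNF, without overlap, for a log2 fold change of -0.36 ± 0.10 (adjusted p = 0.00855). Sec24a measured 134, 116 and 107 CPM after PBS and 112, 114, 101 and 104 CPM after TNF, and Sec24d 223, 171 and 138 CPM after PBS and 159, 206, 186 and 198 CPM after TNF. Both had overlapping groups and did not pass the test, with log2 fold changes of -0.14 ± 0.11 and 0.08 ± 0.15.

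Sec23a and Sec23b are the partners of Sec24 in the inner coat. Sec23a measured 32.9, 36.8 and 37.8 CPM after PBS and 37.1, 37.3, 39.1 and 47.6 CPM after TNF, and Sec23b 132, 108 and 109 CPM after PBS and 101, 130, 117 and 110 CPM after TNF. The groups overlapped for both, and log2 fold changes of 0.17 ± 0.12 and -0.02 ± 0.12 did not pass the test. Sec24d took 37.3% ± 3.97 of the counts of Sec24a, Sec24c and Sec24d together (Sec24b was not part of this share) in PBS and 43.4% ± 3.65 in TNF libraries (exact permutation p = 0.0857, adjusted p = 0.171), and Sec23a took 23.7% ± 3.22 and 26.1% ± 3.32 of its pair (exact permutation p = 0.371, adjusted p = 0.446).

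Of the 6 COPI coat genes, 2 (33.3%) were called lower, beside 30.1% of all genes tested. The count called higher by edgeR was 0, also at an unadjusted p under 0.05, in the DESeq2 Wald test and without any one library. Copa, the alpha subunit, measured 539, 451 and 417 CPM after PBS and 296, 358, 321 and 348 CPM after TNF, with every TNF library below every PBS library. The log2 fold change was -0.50 ± 0.12 (adjusted p = 0.00236). Copb2, the beta-prime subunit that pairs with Copa, gave -0.44 ± 0.14 (adjusted p = 0.0115), a call lost without PBS replicate 1 (-0.29), which left 1 COPI gene called. Copb1, Cope, Copg1 and Arcn1, the beta, epsilon, gamma and delta subunits, had log2 fold changes from -0.13 to 0.18 and did not pass the test. With scaling by total counts, Copb1 and Copg1 were called lower as well (both -0.28), for 4 COPI genes called lower. At this scaling 4614 of all 14329 genes tested were called lower.

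The 9 receptors held the largest rises among the 51 genes, Mcfd2 and Kdelr3. Of the 9, 4 (44.4%) were called higher and 1 (11.1%) lower, beside 29.5% and 30.1% of all genes tested. Mcfd2 and Lman1 together form the receptor that exports coagulation factors V and VIII and other glycoproteins from the ER, Lman1 being the lectin and Mcfd2 its small calcium-binding partner. Mcfd2 (chromosome 17, 87519800 to 87573799, minus strand of GRCm39) measured 149, 137 and 119 CPM after PBS and 434, 591, 490 and 643 CPM after TNF. All TNF libraries lay far above all PBS libraries. The rise was 4.00-fold, a log2 fold change of 2.00 ± 0.15 (adjusted p = 9.9e-08), with values from 1.83 to 2.09 under the alternatives, and no 50-base window of Mcfd2 was shared with another gene.

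Lman1 (chromosome 18, 66113808 to 66155651, minus strand) did not rise with its partner. It measured 381, 290 and 284 CPM after PBS and 155, 262, 218 and 230 CPM after TNF, all TNF libraries being lower. The log2 fold change was -0.56 ± 0.17 (adjusted p = 0.0105), and the call was lost without PBS replicate 1 (log2 fold change -0.41, adjusted p = 0.0605), so that no receptor gene was then called lower. Without PBS replicate 3 or TNF replicate 2 Kdelr2 joined it, for 2 called lower. The ratio of Mcfd2 to Lman1 in CPM was 0.392, 0.471 and 0.418 in PBS libraries and 2.81, 2.25, 2.25 and 2.80 in TNF libraries. Lman2, a related lectin, went from 225 ± 21.4 to 195 ± 21.6 CPM (SD), a log2 fold change of -0.21 ± 0.12 that did not pass the test except with scaling by total counts (-0.37).

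**Figure D3:**
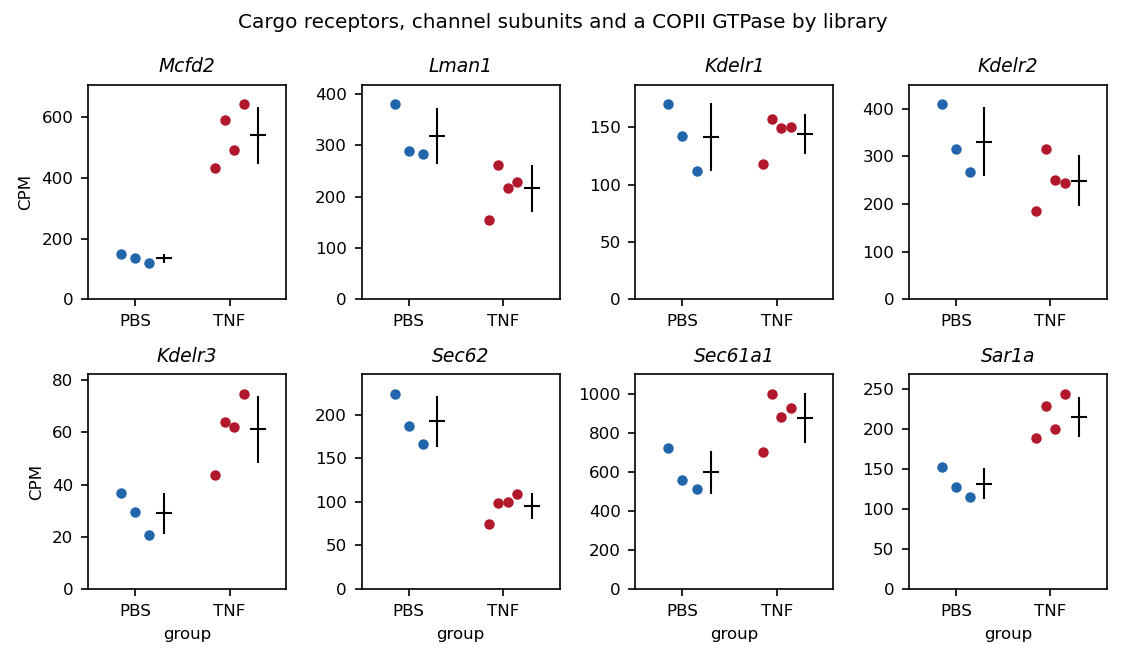
CPM of Mcfd2, Lman1, Kdelr1, Kdelr2, Kdelr3, Sec62, Sec61a1 and Sar1a in each library (points), with the group mean and SD beside them (bars, n = 3 PBS and 4 TNF), each panel on its own linear scale from 0. Mcfd2, Kdelr3 and Sar1a lie higher in all 4 TNF libraries, Sec62 and Lman1 lie lower in all 4, and Kdelr1 and Kdelr2 overlap between the groups.

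KDEL receptors recognise the C-terminal tag of ER residents in the Golgi and return them by COPI vesicles. Kdelr3 (chromosome 15, 79400596 to 79411940, plus strand of GRCm39) measured 36.7, 29.4 and 20.7 CPM after PBS and 43.8, 63.8, 62.1 and 74.7 CPM after TNF. All TNF libraries were higher, and the log2 fold change was 1.08 ± 0.21 (adjusted p = 7.5e-04). Kdelr1 measured 170, 142 and 112 CPM after PBS and 118, 158, 149 and 150 CPM after TNF, and the groups overlapped fully (log2 fold change 0.02 ± 0.14, adjusted p = 0.891). Kdelr2 measured 410, 316 and 268 CPM after PBS and 186, 316, 251 and 245 CPM after TNF, also with overlap (-0.41 ± 0.18, adjusted p = 0.0613). Kdelr2 was called lower under 5 alternatives: without PBS replicate 3 (-0.55) or TNF replicate 2 (-0.54), with scaling by total counts (-0.56), with no filter on low counts and in the DESeq2 Wald test (both -0.41).

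Kdelr3 remained the least abundant of the 3 receptors per kb, at 42.9 CPM per kb after TNF beside 89.4 for Kdelr1 and 135 for Kdelr2. Its share of the counts of the family was 5.94%, 6.04% and 5.18% in PBS libraries and 12.6%, 11.9%, 13.4% and 15.9% in TNF libraries. The groups did not overlap, with an exact permutation p of 0.0286, the smallest possible, and 0.0857 after adjustment over 6 families. No family passed after that adjustment, which this design could reach only if at least 4 of the 6 families gave the smallest p. No 50-base window of the 3 receptors was shared with another annotated gene.

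Promoter windows of RefSeq (build GRCm38.p6, 250 bases before to 50 after the start) matched 40 of the 51 genes, with 43 windows. They were searched on both strands for short motifs known from ER stress and inflammation. The core of the unfolded protein response element (UPRE), TGACGTG, known to be bound by XBP1 and ATF6, was in 5 of the 43 windows (11.6%), those of Copb1, Copb2, Kdelr3, Sec23a and Sec24d. It was in 2.01% of 32851 windows of all genes and in 2.86% of 13029 windows of genes tested. The 250 bases before the start are shown for Kdelr3, the called gene with the large rise, and for Sec24d, a gene of the same motif that did not pass the test, with the motif in capitals (on the minus strand in Kdelr3).

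Kdelr3, chr15:79516158-79516407, plus strand: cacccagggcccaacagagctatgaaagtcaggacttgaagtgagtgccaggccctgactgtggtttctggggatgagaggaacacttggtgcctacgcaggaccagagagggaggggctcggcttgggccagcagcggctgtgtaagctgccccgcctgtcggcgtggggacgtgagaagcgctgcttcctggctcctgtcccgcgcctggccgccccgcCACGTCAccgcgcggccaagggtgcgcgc
Sec24d, chr3:123267246-123267495, plus strand: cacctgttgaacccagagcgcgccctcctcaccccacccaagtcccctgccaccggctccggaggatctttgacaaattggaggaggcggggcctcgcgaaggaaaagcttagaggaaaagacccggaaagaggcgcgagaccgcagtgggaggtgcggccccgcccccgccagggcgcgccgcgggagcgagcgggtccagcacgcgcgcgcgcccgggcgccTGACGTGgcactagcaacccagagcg

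Of the 5 genes with the UPRE core, Kdelr3 was called higher, Copb2 lower, and Copb1, Sec23a and Sec24d did not pass the test. The CCAAT box (CCAAT, the site of NF-Y) was in 19 of the 43 windows (44.2%), beside 37.4% of all windows. The ER stress element (ERSE, CCAAT and CCACG with 9 bases between), the related ERSE-II (ATTGG and CCACG with 1 base between) and the NF-kB motif were in 0 of the 43 windows, beside 0.119%, 0.0365% and 4.51% of all windows. The CCAAT box is contained in ERSE, and in ERSE-II on the opposite strand. A motif match is a description of these letters only, and its absence holds for this window alone.

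The last receptors among the 51 belong to the p24 family, which sorts GPI-anchored and other cargo into vesicles. Tmed2 rose by 0.55 ± 0.14 (log2, adjusted p = 0.00402) and Tmed9 by 0.68 ± 0.14 (adjusted p = 7.32e-04). Tmed9 measured 224, 176 and 173 CPM after PBS and 245, 348, 311 and 322 CPM after TNF, without overlap. Tmed10 measured 223 ± 45.1 CPM after PBS and 257 ± 31.2 CPM after TNF (SD), a log2 fold change of 0.21 ± 0.14 that did not pass (adjusted p = 0.222) except without PBS replicate 1, where it was 0.37. Reads of Tmed10 and Tmed2 are partly uncertain, since 49.9% and 23.4% of their 50-base windows occur in other annotated genes, a pseudogene of Tmed10 among them.

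A wider list of 129 genes of the same pathway, of which 126 were tested, had 39 called higher and 43 lower (65.1% called, beside 59.6% of all genes tested). At a mean of at least 20 CPM, 66 of 96 (68.8%) were called, beside 70.2%. Genes for the insertion of membrane proteins, the ER membrane protein complex (EMC) and the GET route for tail-anchored proteins, had 9 of 16 (56.2%) called higher and 1 lower. For this and the lists that follow, 29.5% of all genes tested were called higher and 30.1% lower. Emc6, an EMC subunit, measured 28.3, 23.0 and 27.0 CPM after PBS and 64.9, 75.2, 75.1 and 90.1 CPM after TNF, all higher, and rose by 1.55 ± 0.13 (log2, adjusted p = 2.85e-07). Emc3 (1.15 ± 0.11) and Get4 (1.32 ± 0.14) rose as well. Emc9 measured 2.23, 2.7 and 1.80 CPM after PBS and 0.448, 0.766, 0.482 and 0.0654 CPM after TNF, and was the one called lower. Its log2 fold change was -2.32 ± 0.58 (adjusted p = 0.0033), on 123 counts in all 3 PBS libraries together and 31 in all 4 TNF libraries.

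Other COPII genes had 3 of 11 called higher and 7 lower. Pdcd6, a calcium sensor that binds Sec31, measured 41.1, 40.5 and 34.2 CPM after PBS and 114, 116, 115 and 141 CPM after TNF, far apart, a rise of 1.65 ± 0.12 (log2, adjusted p = 5.64e-08). Its partner Pef1 fell by 0.60 on the log2 scale (SE 0.11). Among the genes that fell were Sec16a (-0.78 ± 0.11) and Sec16b (-1.12 ± 0.16), which organise ER exit sites, and Mia3 (-0.87 ± 0.15), which helps export large cargo. Sec31b, a paralog of Sec31a, measured 2.16, 0.916 and 2.44 CPM after PBS and 0.168, 0.295, 0.0536 and 0.327 CPM after TNF. It was called lower (-3.11 ± 0.64, adjusted p = 8.67e-04) on 99 counts in PBS and 14 in TNF libraries together.

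Other COPI genes had 4 of 12 called higher and 5 lower. The 4 that rose were Arf1, Arf3, Arf4 and Arf5, the small GTPases that recruit the coat, with log2 fold changes from 0.38 to 0.89. Gbf1, the exchange factor that activates Arf proteins at the early Golgi, went from 193 ± 23.2 to 63.3 ± 5.05 CPM (SD), a log2 fold change of -1.61 ± 0.11 (adjusted p = 3.89e-08). The zeta subunits Copz1 and Copz2 and the other gamma subunit Copg2 were also called lower, from -0.50 to -0.45, in the direction of Copa and Copb2.

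Other N-glycosylation genes had 5 of 31 called higher and 10 lower. Nus1, a subunit of the enzyme that makes dolichol, measured 111, 101 and 94.1 CPM after PBS and 231, 291, 255 and 306 CPM after TNF (log2 fold change 1.41 ± 0.12, adjusted p = 3.69e-07). Its catalytic partner Dhdds fell by 0.82 (SE 0.15). Dpagt1, which adds the first sugar to dolichol, rose by 0.92 ± 0.15, whereas Alg6, a later glucosyltransferase, fell by 1.51 (SE 0.13), and so did the glucosidase genes Mogs (by 0.94) and Ganab (by 0.64) and Uggt1 (by 0.86), a glycoprotein folding sensor. Magt1, the oxidoreductase subunit that belongs to the Stt3b complex, fell by 0.84 (SE 0.14), while its paralog Tusc3 rose by 0.40 (SE 0.15).

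Transcription factors known to drive secretory capacity did not move as a group: 3 of 8 were called higher and 4 lower. Xbp1, of the unfolded protein response, measured 409, 288 and 238 CPM after PBS and 485, 632, 506 and 623 CPM after TNF (log2 fold change 0.85 ± 0.18, adjusted p = 9.8e-04). Atf6, a sensor of that response that is itself a transcription factor once cleaved, rose by 0.86 ± 0.13 (adjusted p = 7.58e-05). Bhlha15 (Mist1), which is known to scale up secretory architecture in exocrine cells, measured 326, 335 and 301 CPM after PBS and 13.3, 9.61, 10.8 and 12.8 CPM after TNF. It was 27.6-fold lower after TNF (log2 fold change -4.79 ± 0.13, adjusted p = 1.68e-11). Creb3l1, Creb3l2 and Creb3l4, membrane-bound factors related to Atf6, were called lower, from -1.98 to -1.56, and Creb3 was called higher (0.42 ± 0.13).

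**Figure D4:**
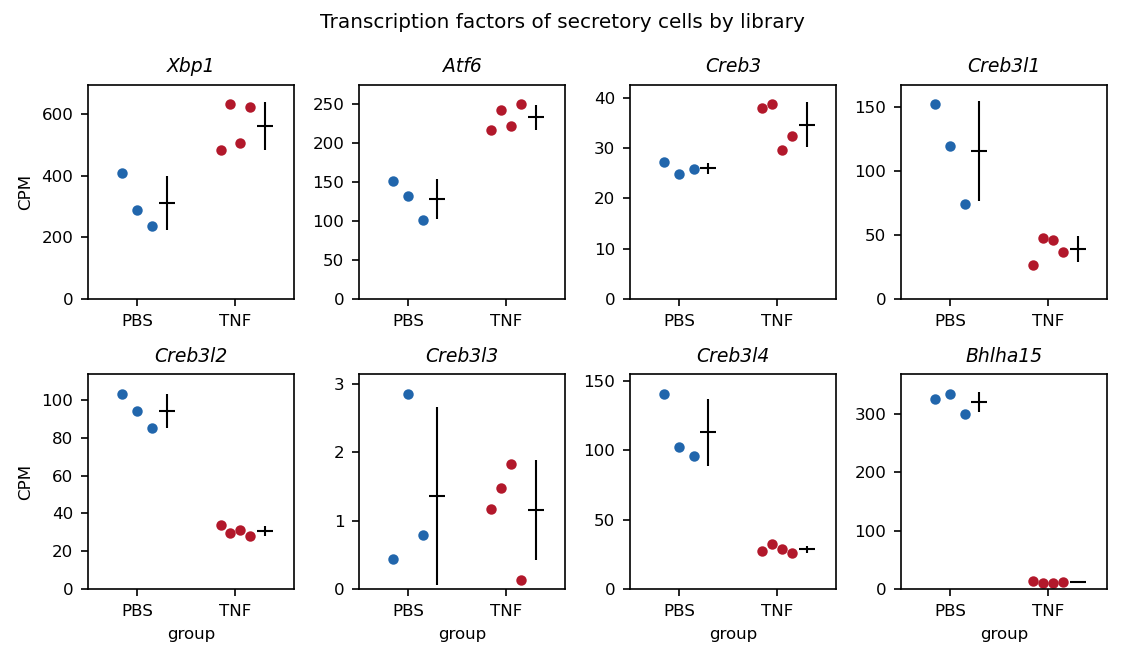
CPM of the 8 transcription factors in each library (points), with the group mean and SD beside them (bars, n = 3 PBS and 4 TNF), each panel on its own linear scale from 0. Xbp1, Atf6 and Creb3 lie higher in every TNF library, Bhlha15, Creb3l1, Creb3l2 and Creb3l4 lie lower in every TNF library, and Creb3l3 stays under 3 CPM in every library.

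Within each treatment the CPM of the 51 genes varied together between libraries. PBS replicate 1 had the highest CPM of the 3 PBS libraries for 47 of the 51 genes (92.2%, beside 36.9% of all genes tested), and PBS replicate 3 the lowest for 43 (84.3%, beside 41.3%). TNF replicate 1 had the lowest of the 4 TNF libraries for 47 (92.2%, beside 31.4%). Summed over the 51 genes, the level was 11860, 9356 and 8463 CPM in PBS and 8378, 10990, 10010 and 10920 CPM in TNF libraries, with overlapping groups. The summed PC markers were highest in PBS replicate 1 (273500 CPM) and lowest in PBS replicate 3 (168400 CPM) as well, and lowest in TNF replicate 1 (172900 CPM) among TNF libraries. Goblet cell markers were also highest in PBS replicate 1, at 21190 CPM beside 11700 and 11870 CPM. CPM fall as the TMM factor of a library rises. This factor was 0.931, 1.07 and 1.22 in PBS replicates 1 to 3. In TNF replicates 1 to 4 it was 1.09, 0.926, 0.974 and 0.842. Whether the marker levels or this factor have a part in the order of the libraries was not tested. The coefficient of variation of the 51 genes ran from 5.37% to 38.1% within PBS (median 15.8%) and from 5.91% to 25.0% within TNF libraries (median 13.4%).

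**Figure D5:**
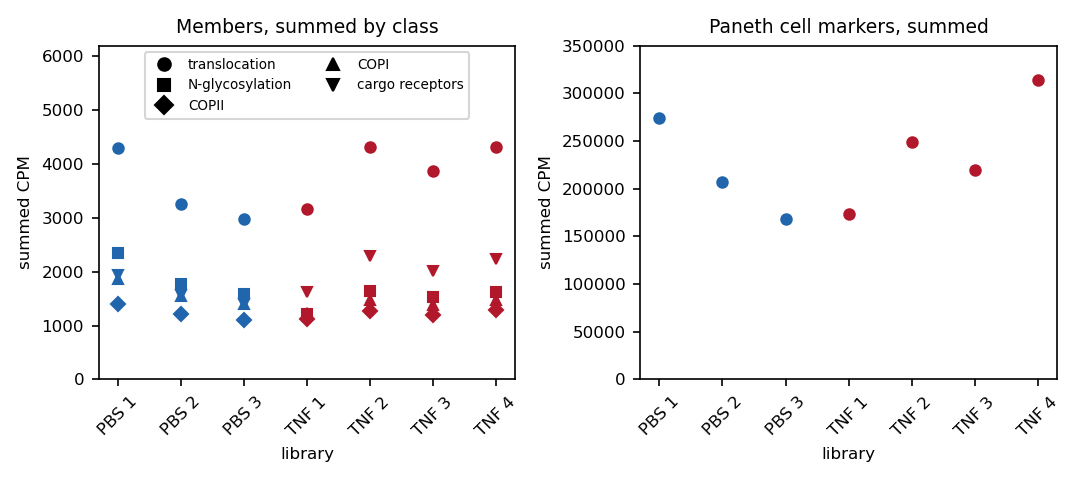
Left, summed CPM of the members of each of the 5 classes in each library. Right, summed CPM of the 10 PC markers in the same libraries. Both panels start at 0, and in both PBS replicate 1 stands highest among PBS libraries and TNF replicate 1 lowest among TNF libraries.

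By class, the summed level of the translocation genes was 3507 ± 692 CPM after PBS and 3919 ± 543 CPM after TNF (SD, n = 3 and 4), and that of the receptors 1643 ± 277 and 2040 ± 300 CPM. Oligosaccharyltransferase summed to 1899 ± 399 and 1505 ± 196 CPM and the COPI coat to 1604 ± 238 and 1391 ± 108 CPM. The COPII coat was at 1239 ± 156 and 1222 ± 73.2 CPM, where the rises of Sar1a, Sar1b and Sec13 and the falls of Sec24c and Sec31a nearly balanced. These sums were not tested, and for each class the groups differed by less than 2 SD of the PBS libraries.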

How the data were processed

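Libraries of sorted PC RNA were read from one end on an Element AVITI sequencer. The authors deposited whole-number read counts per Ensembl gene, 1 column per library. The submitters' processing notes name FastQC, Trimmomatic 0.39, STAR 2.7.10a, DESeq2 and the genome builds mm10 and mm39. Which build was counted, with which annotation, and whether strand was used is not given in the sources used here. Counts of overlapping genes, such as Sec24a and Sar1b, are uncertain.

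From the counts, edgeR 4.0.16 in R 4.3.3 (filterByExpr, TMM scaling, robust quasi-likelihood test, two-sided, Benjamini-Hochberg over 14329 genes) compared 4 TNF with 3 PBS libraries without covariates. The scripts were tested on simulated data. For shares of paralogs, the exact permutation test ran over 35 splits, two-sided, adjusted over 6 families. Such shares are of counts, not corrected for length. Canonical transcript lengths and coordinates came from GENCODE M39 (GRCm39), which held 98.8% of the identifiers, and shared sequence was counted as 50-base windows of a gene's exons found in another gene. Promoters came from RefSeq.

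The members, gene lists, motifs and tests were chosen with earlier results of these data known. Of the wider pathway list, 129 symbols were found and Camlg and Alg10b were not matched. Library values and full statistics are given for members called with at least 2-fold change, the called member with the largest rise and the largest fall without overlap in each complex, and the paralog families. Of the wider list they are given for the 3 largest rises and falls without overlap. Other genes named, also with library values (Sec61a1, Tmed9 and Xbp1), were chosen after their values were seen. The 14 alternatives comprised DESeq2 1.42.0 size factors, total-count scaling, leaving out alpha-defensins and Lyz1 for the scaling, testing all genes unfiltered, requiring 1 CPM in 3 libraries, the DESeq2 Wald test, the replicate number as a block, and each library left out in turn.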

Additional observations from a re-analysis of the deposited data

Results flagged for a closer look

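Dixon's ratio, the gap of the most extreme library to its nearest neighbour divided by the range of the group, was computed for 69 values in the 4 TNF libraries, where chance passes its 95% critical value in about 1 in 20. It passed for 2 of them. Stt3b had a ratio of 0.867, with TNF replicate 1 at 197 CPM and the other 3 libraries at 248 to 256 CPM. Pdcd6 had a ratio of 0.929, with TNF replicate 4 at 141 CPM and the other 3 at 114 to 116 CPM. Groups of 3 were too small for this, so PBS libraries were not examined.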

How the results depend on the processing

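Of the 25 called genes, 14 kept their call under all 14 alternatives, 11 lost it under at least 1, and 0 changed sign, while 13 others gained a call under at least 1. Scaling by total counts gave 21 members called lower, beside 4614 of all 14329 genes tested. Of these members 7 were of translocation, 5 of N-glycosylation, 4 of COPI and 3 were receptors. No filter on low counts and the DESeq2 Wald test each gave 2 receptors called lower. Leaving out 1 library at a time gave 9 to 16 members higher and 7 to 14 lower, 2 to 9 and 2 to 6 of translocation, 1 to 2 of COPI lower and 0 to 2 receptors lower. The cause of these differences was not tested. The correlations of same-numbered deviations from the group mean were -0.30, -0.03 and -0.17, beside -0.21 to 0.35 for other pairs. So few values cannot decide whether the replicate number pairs the samples. With the replicate number as a block, 9 members were called higher and 7 lower, beside 3553 and 3578 of all 14329 genes tested. Of these members 2 and 2 were of translocation, and 1 of COPII and 1 of COPI were lower. With 3 and 4 libraries, the median SE of 0.14 over the members limits which small changes could be called.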

Other observations

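Genes of the wider list that tether and fuse vesicles between the ER and the Golgi were called in both directions. Of 23 tested, 8 were called higher and 7 lower, beside 29.5% and 30.1% of all genes tested. The largest fall was that of Gorasp1, a Golgi stacking protein, from 51.8 ± 5.48 to 13.0 ± 2.65 CPM (SD, n = 3 and 4), which is -1.99 ± 0.15 in log2 (SE, adjusted p = 1.15e-07 by edgeR). Its paralog Gorasp2 rose from 168 ± 28.4 to 258 ± 28.6 CPM, by 0.62 ± 0.13. The SNAREs Bet1 (-1.45 ± 0.18), Gosr1 (-0.68 ± 0.10) and Stx5a (-0.59 ± 0.10) were called lower, and the SNAREs Gosr2 (0.63 ± 0.12) and Sec22b (0.30 ± 0.10) higher. The GTPase Rab1a rose by 0.49 ± 0.13, while Rab1b, at 0.22 ± 0.10, did not pass the test.

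Among 14 tested receptors outside the 51 genes, 4 were called higher and 5 lower. Lman2l, a lectin related to Lman2, went from 17.5 ± 0.735 to 5.98 ± 1.96 CPM, a log2 fold change of -1.54 ± 0.22. Ergic1 (-0.65 ± 0.17) and Ergic3 (-0.66 ± 0.11) were called lower and Ergic2 (0.48 ± 0.11) higher, although these proteins are known to form complexes with each other. Surf4, a broad cargo receptor at 431 ± 85.8 CPM after PBS, was at 549 ± 79.2 CPM after TNF and did not pass the test (adjusted p = 0.0619). Genes named here were chosen after their values were seen.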
